A study of Schizosaccharomyces pombe with 4 samples.

Results

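The windows described here are stretches with small RNA reads that overlap annotated long noncoding RNA (lncRNA) genes of the fission yeast Schizosaccharomyces pombe and no coding gene. They were taken from the deposited table that sets cells labelled ABP1d against wild-type (WT) cells. A window was a member when it lay on chromosomes I to III, overlapped a lncRNA gene by at least 1 base and no protein-coding gene, and held no run of 15 or more A or T bases. Members also touched no Tf2 retrotransposon, LTR, rRNA, tRNA, snRNA, snoRNA or other structured RNA gene, no centromere or mating-type locus, and no base within 100 kb of either end of chromosomes I and II. The rule used no measured value and gave 224 of the 4012 windows in the table. They lay on 185 of the 7133 lncRNA genes of these chromosomes, and 208 of them lay wholly inside such a gene. Both strains were sampled as untreated, exponentially growing cultures in rich medium, with 2 libraries for each strain. ABP1d is the genotype as the labels spell it, the title names ABP1 as the fission yeast homolog of CENP-B, and nothing further on the alleles of either strain is given in the sources used here.

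Fission yeast transcribes lncRNAs from most parts of its genome, often antisense to a coding gene, from its promoter or beyond its 3′ end. Most are rare in growing cells, where the nuclear exosome and RNA interference remove many of them. At the centromeres, small RNAs cut from noncoding repeat transcripts by the RNase Dicer guide heterochromatin to the same repeats. Abp1, a DNA-binding protein related to transposases, is known to bind Tf2 retrotransposons and LTRs and to keep their transcripts low.

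The sequences below belong to the windows on which the results turn, with coordinates and top strand of the RefSeq assembly ASM294v3. Capitals mark bases in stretches of 20 that occur at more than 1 place in the genome, on either strand, and lower case marks single-copy sequence. In a window shorter than 20 bases, as for prl6, these stretches reach into the bases beside it. The first 3 are lncRNA windows with Tf2 sequence, the 4th lies beside centromere 1, the next 6 are the single-copy windows most described below, and the last is the single-copy window with the most reads among those lower in ABP1d.
SPNCRNA.863 and SPNCRNA.3329, chrI:2940550-2940592: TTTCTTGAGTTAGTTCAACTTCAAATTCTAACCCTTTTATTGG
SPNCRNA.863 and SPNCRNA.3329, chrI:2940448-2940492: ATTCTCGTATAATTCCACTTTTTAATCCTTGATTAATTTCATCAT
SPNCRNA.6763, chrIII:255192-255212: GCTACATACACATCTTAGTAA
IRC1-L, chrI:3753315-3753373: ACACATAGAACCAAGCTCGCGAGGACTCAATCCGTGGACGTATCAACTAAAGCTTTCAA
SPNCRNA.1042, chrI:5011269-5011324: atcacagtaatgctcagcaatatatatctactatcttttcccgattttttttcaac
SPNCRNA.900, chrI:3300804-3300838: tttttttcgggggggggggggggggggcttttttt
SPNCRNA.1194, chrIII:1411093-1411130: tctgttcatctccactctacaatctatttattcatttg
SPNCRNA.4334, chrI:5173760-5173825: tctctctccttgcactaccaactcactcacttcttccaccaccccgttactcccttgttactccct
mamRNA, chrII:1308315-1308345: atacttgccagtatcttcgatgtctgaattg
prl6, chrIII:968479-968496: tggagtggagtggagtgg
SPNCRNA.942, chrI:3851126-3851155: gcatctataataatctgattttcgtatgaa

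Each strain has 1 deposited RPKM value per window, pooled over its libraries, and RPKM times length gave whole reads in 100% of windows. These were reads of totals of 23817270 in ABP1d and 14466014 in WT, so 1 read is worth 0.0691 RPM in WT and 0.042 RPM in ABP1d, where RPM counts reads in 1e6 reads of the total. Without values per library, the spread between replicates is unknown and no difference was tested against it. Ratios of RPM, ABP1d over WT, are given with exact 95% binomial intervals (Clopper-Pearson) on the pooled reads, which cover counting error only. Where a strain had 0 reads, 3 reads over the pooled strain were put in its place and the ratio is called a bound, written with at least. Such a bound rests on the chosen 3 reads and is not a 95% limit. In windows with 0 WT reads the lower 95% limit lay below the bound, for example at 156 for a bound of 193 and at 1.36 for a bound of 2.02. The table lists only windows to which the authors gave a p of at most 0.0494, and small RNAs of lncRNA genes outside them are not analysed here.

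Most lncRNA windows carried more small RNA in ABP1d. Of the 224, 207 were higher in ABP1d and 17 lower, or 92.4% higher where 82.9% of all windows in the table were. At least 2-fold higher were 202 (79.9% of all windows) and at least 2-fold lower were 15 (11.3% of all windows). The 202 include all 97 members with 0 WT reads. These had 10 or more ABP1d reads, which gives a bound of at least 2.02, so they pass 2-fold by the way the bound is set. All windows include those with A/T runs, in centromeres or on Tf2 elements, which the member rule leaves out. All 1132 Tf2 windows, many with equal reads, were higher in ABP1d, and 925 of them had 0 WT reads. They raise the shares of all windows that are higher or have 0 WT reads. Centromere windows lower both shares, with 259 of 337 lower and 0 without WT reads. Keeping windows with A/T runs would give 209 higher and 78 lower, so the difference in these shares depends on that filter. WT had 0 reads in 97 members, or 43.3%, against 42.7% of all windows, and ABP1d had 0 reads in 1. The median log2 ratio of the members was 2.20, with windows at 0 taken at their bound, and that of all windows was 2.09. With windows of equal reads and length counted once, the members summed to 22199 ABP1d and 8938 WT reads, a ratio of 1.51 (1.47 to 1.55). Read counts were low: the median was 24 reads in both strains together, 98 members had fewer than 20, and the interval held 1 in 13 members. Windows were listed only with a deposited p of at most 0.0494, so an interval that leaves out 1 is no separate support for a difference. By gene, 178 of the 185 lncRNA genes had a summed ratio above 1 and 7 below, and 64 had no WT read.

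The ratio depends on what the strains are scaled to. Reads of the large rRNA gene repeats account for 67.0% of all WT reads and 47.8% of all ABP1d reads. Without them in the totals, every log2 ratio falls by 0.66, and by 0.27 when the 5S genes and the mitochondrion are left out too. Centred on the 5S rRNA windows, the log2 ratios fall by 1.25, and centred on the snRNA windows they fall by 1.96. Members above 1 then number 176 on 5S and 130 on snRNA centring. Of the 48 and 94 that fall below 1, 25 and 55 have 0 WT reads, so that their ratio is a lower bound and they cannot be called lower. Among the 127 members with WT reads, 104 stay above 1 on 5S and 88 on snRNA centring, against 110 on the deposited totals.

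**Figure D1:**
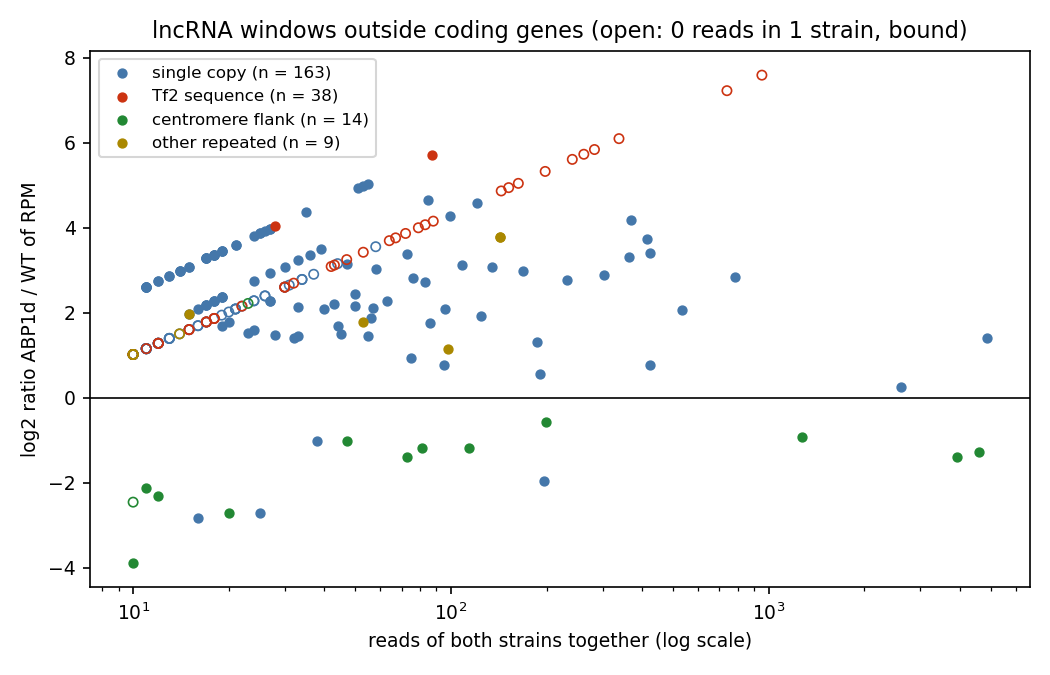
Each point is 1 of the 224 lncRNA windows, with its reads in both strains together (x, log scale) against its log2 ratio of ABP1d over WT on the deposited totals (y), coloured by sequence and place; open circles had 0 reads in 1 strain and stand at their bound, which places them below windows with 1 WT read. The 38 Tf2-sequence windows all lie above 0, 13 of the 14 windows beside a centromere lie below it.

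The members fell into 4 sets by sequence and place, which were formed after the values were seen. The largest set, 163 windows, had single-copy sequence, meaning that no more than 50% of their stretches of 20 bases occurred elsewhere in the genome. For the 129 members under 20 bases, the stretches of 20 that hold the whole window were used. These reach into the bases beside it, so such a window was not itself shown to be unique. Another 38 windows had Tf2 sequence, 14 lay within 10 kb of a centromere, and 9 had other repeated sequence. Single-copy windows held 59.98% of the ABP1d reads and 30.6% of the WT reads of all members, with equal windows counted once. Tf2-sequence windows held 20.2% and 0.0224%, and windows beside a centromere 19.1% and 69.0%. Windows beside a centromere therefore held most of the lncRNA reads in WT, and single-copy windows held most of them in ABP1d.

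The windows with Tf2 sequence were the highest in ABP1d against WT. These lncRNA genes carry stretches of the retrotransposon outside its annotated elements, so the member rule did not remove them. Of the 38 windows all were higher in ABP1d, 36 had no read in WT, and the other 2 had 1 WT read each. Their reads in ABP1d ran from 10 to 952, with a median of 45, and their median log2 ratio at the bound was 3.34. On the 5S centring 34 of them remained above 0 and on the snRNA centring 26, and the windows then below 0 were all at a bound, with no upper limit on their ratio.

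Of these, 27 lay in a block on chromosome I, on SPNCRNA.862, SPNCRNA.863, SPNCRNA.3329 and SPNCRNA.3330. The block lies between the Tf2-3 element and the LTR at 2941944 to 2942286, with another LTR at 2939937 to 2940229 inside it. The remaining 11 lay on SPNCRNA.6763 of chromosome III (254440 to 255562), which starts on an LTR at 254350 to 254629. In the chromosome I block 3866 ABP1d reads stood against 1 WT read, a ratio of 2348 (421 to 92769). On chromosome III 636 ABP1d reads stood against 1 WT read, a ratio of 386 (69.1 to 15281).

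The most abundant of the Tf2-sequence windows was at 2940550 to 2940592 of chromosome I, the first sequence above. It had 930 RPKM in ABP1d from 952 reads and 0 in WT, at least 193-fold higher. The window at 2940448 to 2940492 had 690 RPKM from 739 reads and 0 in WT, at least 150-fold higher. Both overlap SPNCRNA.863 and SPNCRNA.3329, which are annotated on opposite strands, and the files carry no strand to tell them apart. Next by ratio on chromosome I was the window at 2940617 to 2940675, with 240.5 RPKM from 338 reads against 0, at least 68.4-fold higher. SPNCRNA.6763 held its highest window at 255192 to 255212, with 566 RPKM from 283 reads in ABP1d and 0 in WT, at least 57.3-fold higher. At 254672 to 254697 on that lncRNA the values were 139 RPKM from 86 reads and 2.66 RPKM from 1 read, a ratio of 52.2 (9.13 to 2087).
A further 4 windows of the chromosome I block were among the 10 highest ratios. SPNCRNA.862 and SPNCRNA.863 shared those at 2939772 to 2939815, with 250.0 RPKM in ABP1d, and at 2939884 to 2939922, with 176 RPKM. SPNCRNA.3330 held those at 2941814 to 2941852, with 259.5 RPKM, and at 2941464 to 2941549, with 96.7 RPKM. All 4 had 0 reads in WT, and their bounds lay between 33.0-fold and 53.0-fold higher.

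These reads cannot be assigned to the lncRNA genes rather than to the Tf2 elements. Of the 34 windows of at least 10 bases, 30 have all their bases in all 13 annotated Tf2 elements, 3 in 12 of them and 1 in 6. For 24 of the 34 the table holds at least 1 other window of the very same sequence, and in 22 all such windows list the same reads in both strains. Placed on Tf2-1, which spans 4916 bases with its LTRs, the chromosome I windows cover bases 386 to 2378 and those of chromosome III bases 3453 to 4338. Tf2 encodes the retroviral-type Gag and Pol proteins in a single reading frame. Over all 1132 windows of the annotated Tf2 elements, all were higher in ABP1d and the median log2 ratio was 3.40. These 1132 hold 109 distinct combinations of reads and length, so many are not separate observations. Their median is close to that of the lncRNA windows, in part because windows of the same sequence list the same reads.

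**Figure D2:**
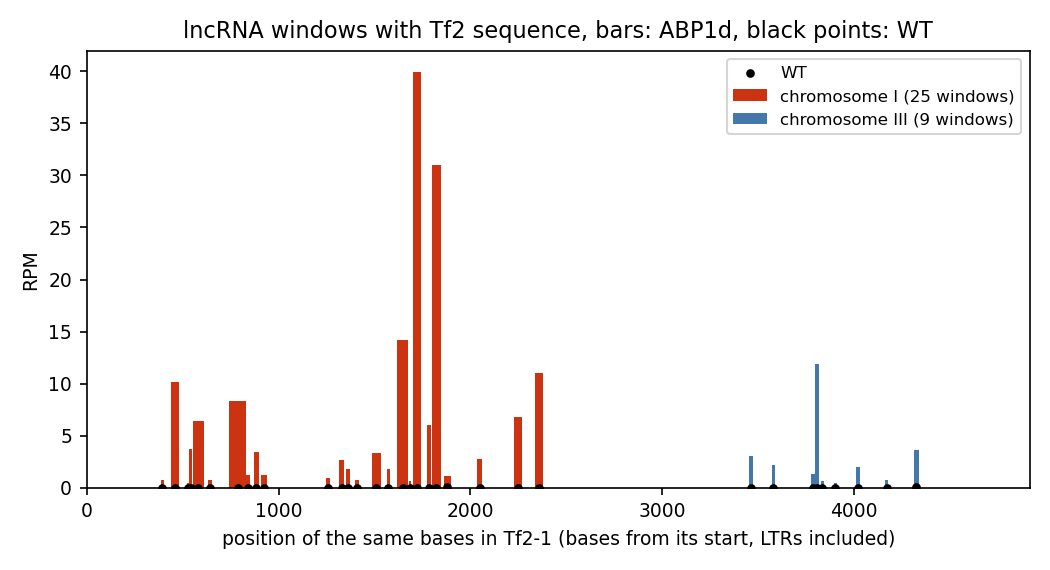
Bars give the ABP1d RPM (y) of the 34 Tf2-sequence lncRNA windows of at least 10 bases, drawn at the position of the same bases in Tf2-1 (x, bases from its start), in red for chromosome I and blue for chromosome III; black points are WT. The chromosome I windows cover bases 386 to 2378 with the 2 tallest bars at 1701 to 1743 and 1801 to 1845, the chromosome III windows cover 3453 to 4338, and WT stays at or near 0 throughout.

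Beside the centromeres the direction was the other way. A centromere was taken as the span of the annotated centromeric lncRNA genes. Of the 14 windows within 10 kb of one, 13 were lower in ABP1d and 1 was higher on the deposited totals. Every other scaling tried lowers all ratios, so the 13 could not turn higher on them. Their unchanged count is therefore no check of the direction. The higher window, with 0 WT reads, stayed above 1 at its bound. The farthest lay 6928 bases away and the next member outward 38273 bases. They summed to 4233 ABP1d and 6163 WT reads, a level 2.40 times as high in WT (2.30 to 2.49). In the centromeres themselves, 259 of 337 windows were lower and the median log2 ratio was -2.19. These 337 hold 116 distinct combinations of reads and length. With equal windows counted once, their ABP1d reads nonetheless summed to 1.55 times the WT level.

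The bulk of these reads came from 3 long windows at centromere 3, with 93.6% of the ABP1d and 94.6% of the WT reads of the set. The window at 1140355 to 1140928 of chromosome III, on SPNCRNA.7234 and SPNCRNA.7235, had 136 RPKM in ABP1d and 331 RPKM in WT, 2.43 times as high in WT (2.29 to 2.58). On the other side of the centromere, the window at 1069904 to 1070392 on SPNCRNA.7185 had 130.2 RPKM in ABP1d and 340 RPKM in WT, 2.61 times as high in WT (2.45 to 2.78). These 2 windows share most of their sequence: 88.7% of the stretches of 20 bases of the second occur in the first, and 75.1% the other way round. Reads from the shared stretches cannot be assigned to either side. How multiply matching reads were placed is not known. If they were entered at both windows, the sum of the set, its interval and its share of the member reads count them more than once. The third, at 1140940 to 1141122, is single-copy sequence of SPNCRNA.7235 and had 135 RPKM in ABP1d and 258 RPKM in WT, 1.91 times as high in WT (1.71 to 2.14). All these genes are annotated as centromere-proximal lncRNAs, and all 3 windows reach past their ends.
SPNCRNA.7236, the next such gene outward, held windows at 1141309 to 1141328 and 1141607 to 1141673. The first had 8.40 RPKM in ABP1d and 55.3 RPKM in WT, 6.59 times as high in WT (2.12 to 27.1). The second had 21.3 RPKM in ABP1d and 48.5 RPKM in WT, 2.28 times as high in WT (1.43 to 3.65).

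At centromere 1 the lower windows were mainly those of IRC1-L (3753160 to 3753692), the lncRNA of the inverted repeat that borders the pericentromeric heterochromatin on its left side. All 6 windows of IRC1-L were lower in ABP1d, with 208 ABP1d and 248 WT reads in sum and a ratio of 0.509 (0.422 to 0.615). The most abundant, shown above, had 74.7 RPKM in ABP1d and 110.1 RPKM in WT, the smallest difference of the 6 with a ratio of 0.679 (0.509 to 0.906). At 3753406 to 3753435 the values were 39.2 RPKM and 104 RPKM, a ratio of 0.378 (0.227 to 0.619). At 3753442 to 3753473 they were 63.0 RPKM and 143 RPKM, a ratio of 0.442 (0.298 to 0.650). The window at 3753234 to 3753260 had 32.7 RPKM and 66.6 RPKM, a ratio of 0.491 (0.262 to 0.907), and the remaining 2, of 2 and 6 bases, had 3 ABP1d reads each against 8 and 9. All 6 consist of sequence that occurs elsewhere, in IRC1-R at the right border of the same centromere and, for the shortest 2, also in repeats of centromeres 2 and 3.
The exception to the direction stood farthest out, on SPNCRNA.934 and SPNCRNA.935. The window at 3746780 to 3746802 had 23 ABP1d reads and none in WT, at least 4.66-fold higher, and its neighbour at 3746882 to 3746891 had 0 ABP1d and 10 WT reads, at least 5.49-fold lower. No member lay within 10 kb of centromere 2.

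**Figure D3:**
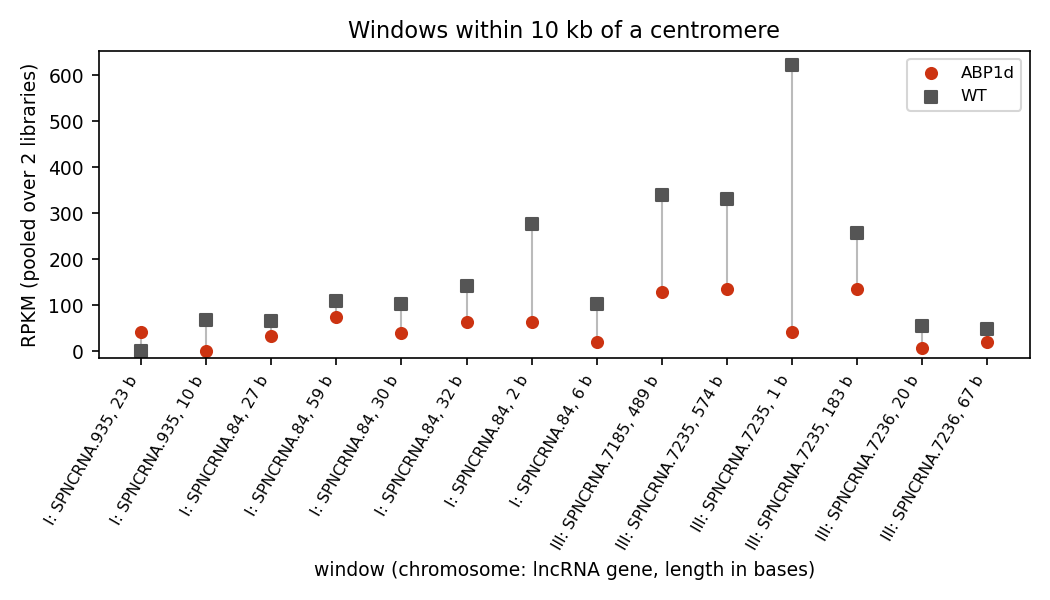
RPKM in ABP1d (red circles) and WT (grey squares), each pooled over 2 libraries, for the 14 lncRNA windows within 10 kb of a centromere, in order along chromosomes I and III, with the lncRNA gene and window length as labels. WT lies above ABP1d in 13 of the 14, and the exception is the first window, at 42.0 RPKM in ABP1d and 0 in WT; windows of a few bases have high RPKM from few reads.

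The single-copy windows were higher in ABP1d in 159 of 163 cases. Among the 107 with WT reads 103 were higher on the deposited totals, 98 with 5S centring and 83 with snRNA centring. Over all 163, with the 56 that had 0 WT reads at their lower bound, 136 and 100 stayed above 1 on these centrings. Their median log2 ratio on the deposited totals was 2.28. Their median was 20 reads in ABP1d and 1 in WT. Summed over all 163 they had 13653 ABP1d and 2753 WT reads, a ratio of 3.01 (2.89 to 3.14). Of the 86 that had 20 or more reads, 83 were higher and 3 lower, with a median log2 ratio of 2.60. Within single-copy windows by chromosome, 66 of 69 were higher on chromosome I, all 60 on chromosome II and 33 of 34 on chromosome III.

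A pair of windows held 25.6% of the ABP1d and 19.99% of the WT reads of all members. SPNCRNA.1042 (chromosome I, 5009787 to 5011504) carried the most abundant one at 5011269 to 5011324. It had 2966 RPKM in ABP1d from 3956 reads and 1123 RPKM in WT from 910 reads, a ratio of 2.64 (2.46 to 2.84). On the snRNA centring this ratio falls below 1, to 0.679. A second window on this lncRNA, at 5011349 to 5011367, reached 110.5 RPKM in ABP1d and 25.5 RPKM in WT, a ratio of 4.34 (1.96 to 11.3).
SPNCRNA.900 held the other, at 3300804 to 3300838, with 2073 RPKM in ABP1d and 1732 RPKM in WT, a ratio of 1.20 (1.10 to 1.30). That ratio was below 1 on all 4 other scalings, from 0.992 to 0.308. As printed above, this window is a run of 19 G bases between T runs, the longest run of a single base among the members. The next longest, 17 G bases, was in a window of SPNCRNA.3787 (chromosome I, 4010223 to 4010263) with 57 ABP1d and 18 WT reads. In all, 5 members held a run of at least 10 of a base, and what such runs contribute to the reads was not tested.

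Most single-copy windows lay close to a coding gene. Within 500 bases of one were 124 of the 163, of which 75 were on the 3′ side of the nearest coding gene and 49 on its 5′ side, while 39 lay farther away. How much lncRNA sequence outside coding genes lies as close, or on either side, was not computed. These counts are therefore not shown to be a trait of the members. On the 3′ side 74 of 75 were higher, the median log2 ratio was 2.40, and 5425 ABP1d reads stood against 576 in WT, a summed ratio of 5.72 (5.25 to 6.24). On the 5′ side 48 of 49 were higher, with a median of 2.09 and a summed ratio of 2.81 (2.64 to 2.995). Beyond 500 bases 37 of 39 were higher, with a median of 1.78 and a summed ratio of 1.70 (1.58 to 1.83). These sums rest in part on the abundant pair just described, as SPNCRNA.1042 lies on the 5′ side of nup155 and SPNCRNA.900 lies 891 bases from eme1. Without the pair, a choice made after the values were seen, the summed ratio was 3.40 (2.98 to 3.90) on the 5′ side and 5.05 (4.21 to 6.10) beyond 500 bases, so the order of the sums changes.

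Several windows, some of them among the most abundant, stood 3′ of well-studied coding genes, and a selection is described here. SPNCRNA.1194 had its window 14 bases from hta1, which encodes histone H2A alpha, at 1411093 to 1411130 of chromosome III, with 800.0 RPKM in ABP1d and 111 RPKM in WT, a ratio of 7.21 (5.55 to 9.52). Beside gpm1, the phosphoglycerate mutase of glycolysis, the window of SPNCRNA.4334 at 5173760 to 5173825 of chromosome I had 254 RPKM and 24.1 RPKM, a ratio of 10.5 (6.92 to 16.8). A window 10 bases from pil1, the core protein of eisosomes at the plasma membrane, overlapped only the end of SPNCRNA.1133 and had 426 RPKM and 31.9 RPKM at 351175 to 351213 of chromosome III, a ratio of 13.4 (8.34 to 22.8).
Next to gut2, a glycerol-3-phosphate dehydrogenase, SPNCRNA.1235 had 278 RPKM and 15.4 RPKM at 1840394 to 1840447, a ratio of 18.1 (10.2 to 35.3). Beside sdh8 the window of SPNCRNA.1651 at 3962788 to 3962833 of chromosome II had 425 RPKM and 102 RPKM, a ratio of 4.16 (3.22 to 5.45). SPNCRNA.1551 lay 3′ of tdh1, the glyceraldehyde-3-phosphate dehydrogenase, and its window at 2809216 to 2809237 had 96 ABP1d and 3 WT reads, a ratio of 19.4 (6.45 to 95.9). In each of these pairs ABP1d was the higher strain. None of the intervals reached 1, which the limit on the deposited p made likely beforehand. These 3′-side windows other than those of SPNCRNA.1194, SPNCRNA.4334 and SPNCRNA.1651 were chosen after their values were seen. Others on the 3′ side, not described here, include SPNCRNA.1236 near eaf1 with 342 ABP1d and 21 WT reads. Smaller differences were seen for SPNCRNA.477 near trm8, with 311 and 111 in 1 window, and SPNCRNA.5897 near top1, with 135 and 56. SPNCRNA.1194 and SPNCRNA.1551 are annotated as possible alternative UTRs, as are 22 member genes in all. Without strand, reads cannot be assigned to these lncRNAs rather than to nearby coding transcripts.
Ribosomal protein genes lay within 500 bases of 17 members, counting those near none of the repeats or small RNA genes listed below. All 17 were higher in ABP1d, with 774 ABP1d and 43 WT reads in sum, a ratio of 10.9 (8.04 to 15.2) and a median log2 ratio of 2.77. That count is near the share among the 135 members close to no listed feature and outside Tf2 sequence and centromere flanks. Of those, 97.0% were higher, with a median of 2.19. The most abundant was the SPNCRNA.1444 window near rpl26, with 213 ABP1d and 19 WT reads. The window of SPNCRNA.3882 at 4208261 to 4208280 of chromosome I, the single-copy one among the 10 highest ratios, had 113 RPKM from 54 reads in ABP1d and 3.46 RPKM from 1 read in WT, a ratio of 32.8 (5.64 to 1319).

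Some of the coding genes next to single-copy members had windows of their own. The share over all coding genes was not computed, so the counts below have no reference. There were 113 such genes, and 29 of them held at least 1 window of the table, 39 windows in all, of which 33 were higher in ABP1d and 6 lower. In 24 of the 29 genes all own windows were higher, as for adh1 with 98 ABP1d and 3 WT reads inside the gene and 97 and 14 in the lncRNA windows beside it. The tdh1 gene differed from its neighbour: inside it were 20 ABP1d and 84 WT reads, while the lncRNA windows beside it had 114 and 4. In rpl8 there were 167 ABP1d and 202 WT reads, with 10 and 0 in the lncRNA window upstream.

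**Figure D4:**
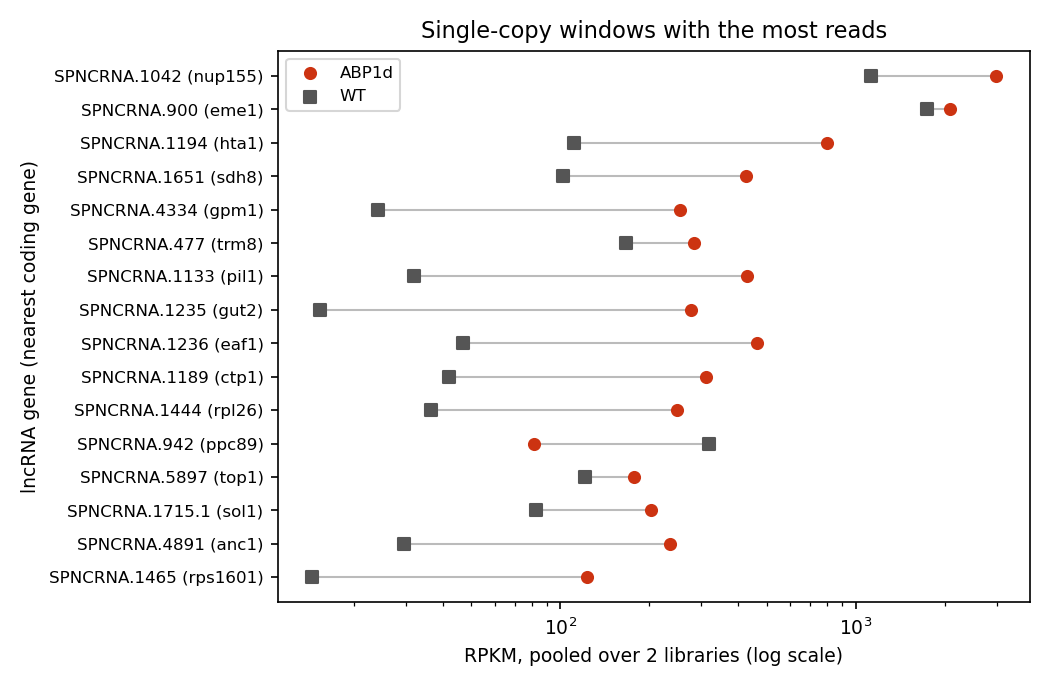
RPKM on a log scale (x) in ABP1d (red circles) and WT (grey squares), pooled over 2 libraries, for the 16 single-copy lncRNA windows with the most reads, labelled with the lncRNA gene and, in brackets, the nearest coding gene. ABP1d lies to the right in 15 of the 16, with the SPNCRNA.942 window as the exception and SPNCRNA.900 with the smallest distance, 2073 against 1732 RPKM.

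Of the lncRNA genes with a symbol of their own, 9 of 88 held a member, and they had 20 windows, 13 higher in ABP1d and 7 lower. Besides IRC1-L, mamRNA had the most reads, the noncoding RNA named for its association with the meiotic regulators Mmi1 and Mei2. Its window at 1308315 to 1308345 of chromosome II had 203 RPKM in ABP1d and 82.5 RPKM in WT, a ratio of 2.46 (1.71 to 3.63), and that at 1308235 to 1308252 had 170.3 RPKM and 49.9 RPKM, a ratio of 3.41 (1.88 to 6.71). Both ratios fall below 1 with snRNA centring, to 0.633 and 0.877. These windows lie 289 and 382 bases from a small nuclear or nucleolar RNA gene. The other RNA of the same pathway, sme2 (meiRNA), which acts with Mei2 to sequester Mmi1 at meiosis, had 10 ABP1d reads and 0 WT reads in a window of 3 bases, at least 2.02-fold higher. That window also lies on SPNCRNA.4674 of the opposite strand, and without strand the reads cannot be assigned to either.
The antisense RNA of alcohol dehydrogenase, adh1AS, held 3 windows on chromosome III, all higher in ABP1d, with 97 against 14 reads and a summed ratio of 4.21 (2.39 to 7.98). Their RPKM values were 75.6 and 13.8 at 1592986 to 1593010, 38.8 and 12.1 at 1593021 to 1593060, and 35.0 and 7.68 at 1593096 to 1593113. At the second of them snRNA centring takes the ratio of 3.21 to 0.826. With prl6, a short noncoding RNA gene that overlaps SPNCRNA.1164 of the opposite strand, the window at 968479 to 968496 had 275 RPKM and 11.5 RPKM, from 118 and 3 reads, a ratio of 23.9 (7.98 to 118). Its sequence, printed above, is a tandem repeat of the bases TGGAG.
The poly(A)-bearing RNA prl53 (chromosome I, 4008054 to 4009905) had windows in both directions. Those at 4008841 to 4008872, 4008895 to 4008915 and 4008928 to 4008955 were higher in ABP1d, with 29, 27 and 84 reads against 4, 6 and 12. The ratios were 4.40 (1.55 to 17.2), 2.73 (1.11 to 8.10) and 4.25 (2.31 to 8.56), and with snRNA centring the second falls to 0.703. At 4008807 to 4008823 there were 3 ABP1d and 13 WT reads, a ratio of 0.140 (0.0256 to 0.510).
The 3 remaining genes had 1 window each. The LTR-associated prl20 had 25 and 1 reads at 3934181 to 3934200 of chromosome II, a ratio of 15.2 (2.49 to 623). At ncRNA.1343, which is transcribed divergently from the regulatory lncRNA of the tgp1 phosphate transporter gene, 16 ABP1d reads stood against 0, at least 3.24-fold higher. A single base of prl36 had 10 against 0, at least 2.02-fold higher. These last 2 windows also lie on lncRNA genes of the opposite strand, SPNCRNA.4682 and SPNCRNA.6065.

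Outside the flanks of the centromeres 4 members were lower in ABP1d, all of single-copy sequence. SPNCRNA.942 had the most reads, at 3851126 to 3851155 of chromosome I and 60919 bases from the centromere, with 81.2 RPKM in ABP1d and 318 RPKM in WT, 3.92 times as high in WT (2.86 to 5.42). The window of SPNCRNA.7266 at 1213721 to 1213738 of chromosome III had 5 ABP1d and 20 WT reads, 6.59 times as high in WT (2.40 to 22.5). A window of the same gene at 1213662 to 1213702 was higher in ABP1d, with 70 and 25 reads and a ratio of 1.70 (1.06 to 2.80). At 763669 to 763695 of chromosome I, SPNCRNA.679 had 17 and 21 reads, 2.03 times as high in WT (1.02 to 4.11), and the prl53 window given above is the last of the 4. Windows in both directions occurred in 4 of the 33 lncRNA genes with more than 1 member.

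The 10 genes with the most windows were SPNCRNA.3329 with 15, SPNCRNA.863 with 12, SPNCRNA.6763 with 11, SPNCRNA.3330 with 10, IRC1-L with 6, prl53 with 4, adh1AS, SPNCRNA.477 and SPNCRNA.7235 with 3 each, and SPNCRNA.1042 with 2, the first by name among those with 2. SPNCRNA.477 (chromosome III, 949754 to 950750) was higher in all 3, with 466 ABP1d and 136 WT reads and a ratio of 2.08 (1.72 to 2.54). A single window was all that 152 of the 185 genes had.

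The 9 windows of other repeated sequence were all higher in ABP1d on the deposited totals. With windows of equal reads and length counted once, they had 306 ABP1d and 37 WT reads in sum, a ratio of 5.02 (3.56 to 7.27). Of the 5 with WT reads, 4 were above 1 with 5S centring and 3 with snRNA centring. Of the 9, 2 lay on SPNCRNA.2435 of chromosome I, 30 and 82 bases from a structured RNA gene, and shared 78.6% and 95.7% of their stretches of 20 bases with snu32, a snoRNA gene on chromosome II. They had 77 and 45 ABP1d reads against 21 and 8 WT reads. Another pair, on SPNCRNA.4043 and SPNCRNA.4048, has the same sequence 37 bases long and the same 137 ABP1d and 6 WT reads.

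By the features near them, the members divided into 31 within 500 bases of an LTR or Tf2 element, 1 near a tRNA gene, 0 near a 5S gene, 11 near a snoRNA or snRNA gene, 17 near a ribosomal protein gene and 164 near none of these. The 31 beside LTRs or Tf2 were all higher in ABP1d. Their median log2 ratio was 3.60, and 25 of them had 0 WT reads. Most of that list, all but 8, were Tf2-sequence windows. The 11 near snoRNA or snRNA genes were all higher, with a median of 1.77 and a summed ratio of 3.35 (2.68 to 4.22). Of the 164 near none, 147 were higher and 17 lower with a median of 2.15, so all 17 lower members were in this list. Outside Tf2 sequence and centromere flanks, 131 of 135 near none were higher. The all-higher counts of the lists of 11 and 17 are near that share and are not shown to be a trait of those lists.

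In their shape the windows were short. Their median length was 18 bases, 129 were shorter than 20 bases and 3 were 100 bases or longer, all 3 at centromere 3. Median GC content was 38.9% in single-copy windows, 35.8% in Tf2-sequence windows and 30.9% in windows beside a centromere. More than 1 lncRNA gene overlapped 43 of the members. Among the 185 genes, 87 overlapped a coding gene of the opposite strand elsewhere along their length, 18 one of the same strand, and 86 none. No member overlapped a region in either strain's own deposited list of small RNA regions.

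Set beside other windows that passed the same filters on repeats, the members had median ratios of similar size, while summed ratios differed. Of the 313 windows on both a lncRNA gene and a coding gene 92.7% were higher, and the median log2 ratio was 2.16. Of the 481 on a coding gene alone 91.5% were higher, with a median of 2.09, and of the 131 on no annotated gene 84.7%, with a median of 1.94. WT had 0 reads in 30.0%, 34.3% and 33.6% of these windows, against 43.3% of the lncRNA windows outside coding genes and 34.4% of the single-copy ones among them. With windows of equal reads and length counted once, the summed ratio of these 3 classes was 4.05 (3.83 to 4.29), 2.66 (2.54 to 2.78) and 6.61 (6.37 to 6.87). In the last class 1 window held 25382 reads of both strains. For the members it was 1.51 (1.47 to 1.55), and for the single-copy ones 2.95 (2.83 to 3.08). No test of these differences was made, as windows of a strain come from the same pooled libraries.

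**Figure D5:**
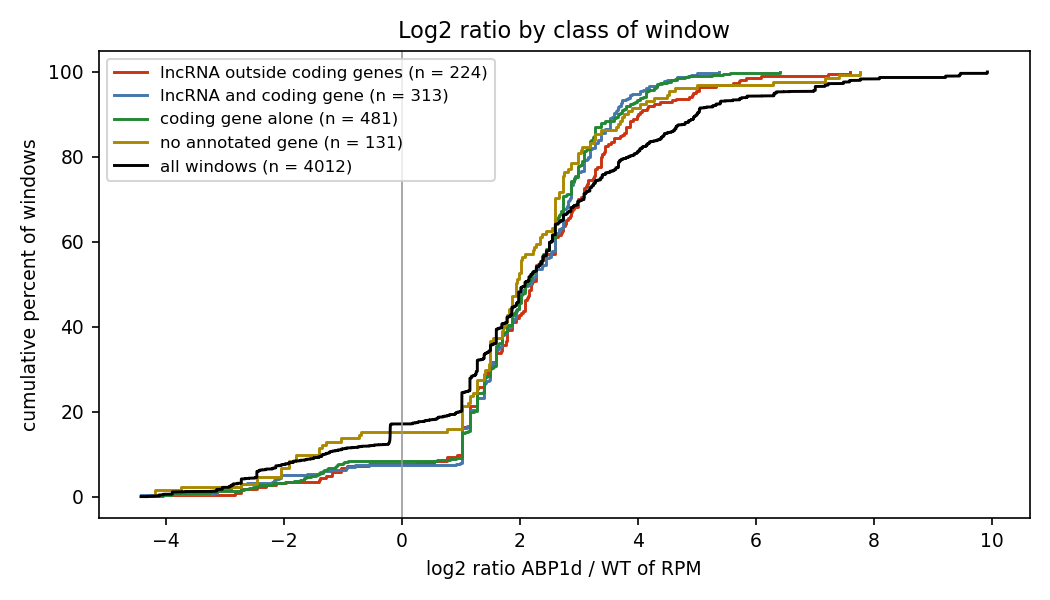
Cumulative percent of windows (y) by log2 ratio of ABP1d over WT on the deposited totals (x), for the 224 lncRNA windows outside coding genes, 3 other classes and all 4012 windows, with windows of 0 reads at their bound. The lncRNA curve (red) runs close to those of windows on coding genes. At 0, on the left, it has 7.59% of its windows, against 17.1% of all windows. The curve of all windows includes the A/T-run and repeat windows that the other curves leave out.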

How the data were processed

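Per the labels' protocols, small RNA libraries came from acid phenol total RNA by adapter ligation and size selection. The submitters' processing notes name Bowtie 0.12.5. No source used here gives the genome build, the filters on reads, how multiply matching reads were placed, the region caller or the test. The libraries are labelled strand-specific, but the files hold no strand.

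As deposited, the authors' RPKM values are 1 per strain and window, pooled over 2 libraries, beside the authors' deposited p-value. Columns were assigned to strains by joining coordinates with the strain lists. The RPKM step gave totals and whole reads, to within 1e-06 of a read. A count test was foreseen for reads per library, and with pooled values none could be made.

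Coordinates were used on ASM294v3, where 169 of 304 ABP1d list regions hold an A/T run of at least 15 bases, against 2 when shifted by 1000 bases. The rule's last 100 kb was read as both ends of chromosomes I and II, Tf2 included LTRs within 500 bases, the rRNA repeat was extended by 5000 bases, and centromeres ran from the first to the last gene annotated as a centromeric lncRNA.

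Members and lists were chosen with earlier results of these data known. Named by rule were the 10 highest and 10 lowest ratios at 20 or more reads, the 10 windows with the most reads, windows of lncRNA genes with a symbol, and the 10 genes with the most windows; further windows named were picked with their values in view. Alternatives are given in the closing section. Steps were checked on simulated data. Python 3.11.15, numpy 2.4.6, pandas 2.3.3, scipy 1.17.1 and matplotlib 3.10.9 were used.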

Additional observations from a re-analysis of the deposited data

How the results depend on the processing

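No paired analysis was possible because the files hold 1 pooled value per strain, so the libraries numbered 1 and 2 cannot be separated. For the same reason the count tests (edgeR and DESeq2) and leaving out each library were not run.

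Scaling moved the values most. The summed ratio of 1.51 became 1.25 without the rRNA repeat, 5S and mitochondrion in the totals, 0.954 without the rRNA repeat alone, 0.634 on 5S and 0.388 on snRNA centring. Centred on 5S, 48 windows and 36 genes were below 1, of which 25 and 22 had 0 WT reads and are no lower calls, and 110 windows were at least 2-fold higher. Centred on snRNA, 130 windows and 116 genes were above 1, 94 windows and 69 genes below 1, of which 55 and 44 had 0 WT reads, 71 windows were at least 2-fold higher, and the median log2 ratio was 0.24. Without the rRNA repeat 12 genes were lower. Among named windows with reads in both strains and at least a 2-fold difference, 5 turned direction, on snRNA centring: SPNCRNA.1042 to 0.679, prl53 to 0.703, mamRNA to 0.877 and 0.633, and adh1AS to 0.826. SPNCRNA.900, at 1.20, was below 1 on all 4 scalings.

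Other choices changed how many windows were counted. At 20 or more reads 114 windows were higher, and at a deposited p of 0.001 or less 119 were higher and 11 lower. Keeping A/T runs gave 209 higher and 78 lower windows. Without repeated windows 9 were lower and the summed ratio was 2.42. Without the window with the most reads it was 1.38. In 2 alternatives chosen after seeing the data, the summed ratio was 1.21 without Tf2-sequence windows, and 3.93, with 4 windows lower, without those within 10 kb of a centromere. Depth limits the windows under 20 reads, whose intervals span several-fold.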
